A study of Mus musculus with 8 samples.

Results

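The *Hox* genes encode homeodomain transcription factors that give cells their position along the body axis. The 39 mouse *Hox* genes were taken from the deposited tables by their symbols, which name a cluster (a, b, c or d) and a paralogue number from 1 to 13, out of 24063 gene symbols listed. The rule uses no measured value, although the family was chosen with earlier results of these data known. RNA had been sequenced from kidney tubuloids, which are 3D epithelial structures grown from primary tubule fragments of mouse kidney. All 8 cultures came from kidneys labelled postnatal day 7-10 (the study's methods give a younger range) with the genotype Pkd2fl/fl Pax8rtTA TetOCre mTmG and were grown in Matrigel for 7 days in medium enriched with growth factors. The 4 GDNF cultures (numbered 6, 12, 17 and 22) also received glial-derived neurotrophic factor as a 24 h pulse after plating, and the 4 control cultures (3, 7, 14 and 21) did not. In these mice the *Pax8* promoter, active in renal epithelium, drives the transactivator that switches on the Cre recombinase when doxycycline is given, which the labels name for none of these cultures. Nothing in the labels says that the cultures of a group came from separate animals, so p-values measure only the spread between these cultures. In RNA from whole cultures, fewer cells of a type and less RNA per cell cannot be told apart.

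*Hox* genes lie in 4 clusters, and within each cluster the genes stand in the order in which they are used along the body: low paralogue numbers at one end of the cluster pattern the hindbrain and neck, and high numbers pattern the lumbar, sacral and tail regions. The proteins bind DNA together with the Pbx and Meis homeodomain cofactors, and Trithorax and Polycomb complexes keep the clusters open or silent. In the kidney, which forms at lumbar levels, the paralogue 11 genes act in the metanephric mesenchyme with *Eya1* upstream of *Six2* and *Gdnf*, the paralogue 10 genes act in the stroma, and the promoter of *Hoxb7* is widely used to drive transgenes in the Wolffian duct and the ureteric bud. GDNF is the ligand, made by that mesenchyme, that signals through the receptor Ret to make the bud grow and branch.

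The tables held 72991721 to 97490625 counts per culture over RefSeq transcripts, and a transcript's level is given below in TPM, a unit that allows for transcript length and so lets genes be compared with each other. Groups were compared in CPM, counts scaled by library size with TMM normalization, for which control culture 3 stood apart with a factor of 0.790, against 0.963 to 0.982 in the other controls and 1.07 to 1.11 in the GDNF cultures. Each group held 2 cultures with *Xist* RNA (control 3 and 7, GDNF 6 and 12) and 2 with Y-linked RNA. Epithelial genes were found in every culture, the ureteric bud and duct list of 16 genes, which includes *Krt8*, *Krt18* and *Cdh1*, summing to 341 to 3072 TPM in the controls and 862 to 1119 TPM after the pulse. Most of this sum in every culture was the keratins *Krt8* (99.4 to 1259 TPM over the 8 cultures) and *Krt18* (134 to 1502 TPM), so it is no measure of bud genes alone. Markers of mature segments were uneven, the collecting duct list summing to at most 92.2 TPM and the proximal tubule list to at most 13.9 TPM, with *Aqp2*, *Slc34a1* and *Slc22a6*, which define these segments, at or near 0. Among other members, the collecting duct genes *Fxyd4* and *Scnn1b* had 4.95 to 69.3 TPM and 0.133 to 9.23 TPM. The proximal glucose transporter *Slc5a2*, at 3.75 to 12.2 TPM, made up most of the proximal sum. The proximal genes *Lrp2*, *Cubn*, *Aqp1* and *Hnf4a* reached at most 0.0899, 0.216, 0.390 and 0.934 TPM, and *Slc22a8* at most 1.26 TPM. Stromal genes were plentiful, the list of 12 summing to 417, 1046, 2892 and 982 TPM in the controls and 456, 1713, 2005 and 1634 TPM after the pulse.

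The tubuloids held RNA of most of the *Hox* repertoire but of almost none of its most posterior genes. Of the 39 genes, 24 had a mean of at least 5 TPM over the 8 cultures, 6 lay between 1 and 5 TPM, 2 between 0.1 and 1 TPM and 6 below 0.1 TPM, and *Hoxb13* had 0 counts in all 8 cultures. The genes at 5 TPM or more were 7 of 11 in the *Hoxa* cluster (chr6:52155367-52260880 in GRCm38), 7 of 10 in *Hoxb* (chr11:96194316-96368254), 4 of 9 in *Hoxc* (chr15:102921131-103036856) and 6 of 9 in *Hoxd* (chr2:74668225-74765142), and they had paralogue numbers from 2 to 11. All 6 genes of paralogue groups 12 and 13 had means below 0.1 TPM, *Hoxb13* included. The grid of mean TPM by cluster and paralogue number shows this pattern in both groups.

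**Figure D1:**
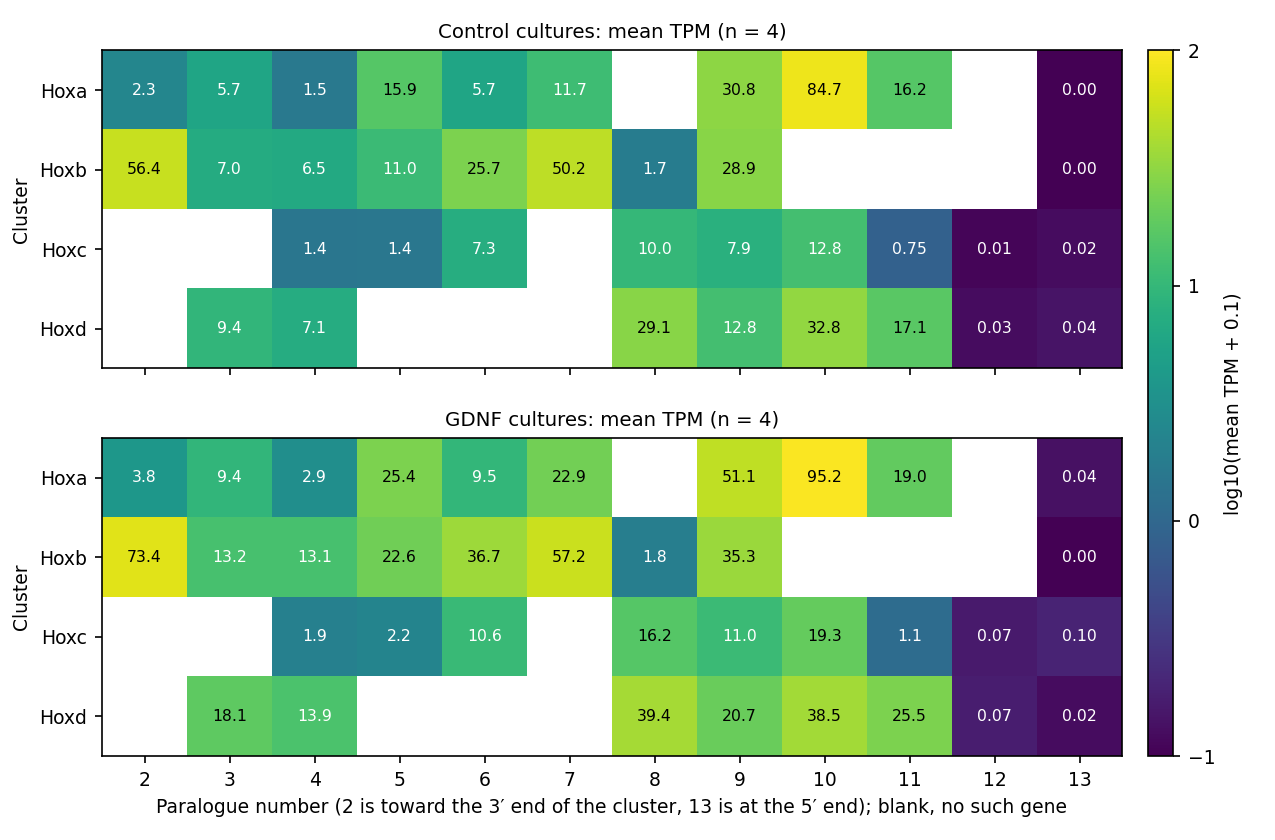
Mean TPM of the *Hox* genes in the 4 control cultures (top) and the 4 GDNF cultures (bottom), with clusters as rows and paralogue numbers from 2 to 13 as columns. Colour gives log10(mean TPM + 0.1), and blank squares are numbers that a cluster does not have. *Hoxa10* is the highest square in both groups, at 84.7 and 95.2 TPM, and the columns for 12 and 13 are below 0.1 TPM in the controls.

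The genes of paralogue groups 12 and 13 were near 0 in libraries of this depth. A count of 3, taken as the least that counts as detected, corresponds for a transcript of 2 kb to 0.0242 to 0.0393 TPM per culture; this covers counting error only. *Hoxa13*, which with *Hoxd13* shapes the digits and the genital tubercle, reached 3 counts in 1 culture, with 8 counts at most, and *Hoxd13* had 0 to 21 counts. *Hoxc13*, used in hair follicles and nails, had 0 to 25 counts, *Hoxc12* 0 to 7 and *Hoxd12* 0 to 18. At the other end, *Hoxb1*, the gene of the fourth hindbrain segment, had 1 to 8 counts. With the 0 counts of *Hoxb13*, a gene of the prostate and the tail, these are the 7 members too low to be tested between groups. *Hoxd1* (0 to 31 counts) and *Hoxc11* (33 to 77 counts) were tested but stayed below 1 TPM on average.

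The posterior genes that pattern the lumbar and thoracic body were among the highest. Below, values in a group are given in the order of the culture numbers. *Hoxa10* (chr6:52231197-52240854), a gene of the lumbar spine and the uterus, stood at 82.998, 87.2, 94.1 and 74.5 TPM in the controls and 101, 86.2, 103 and 90.5 TPM after the pulse. It was the highest *Hox* gene in 7 of the 8 cultures, and its control range (84.7 ± 8.19 TPM, mean ± SD, n = 4) did not overlap that of the next gene, *Hoxb2*. In the controls, 1266 of all gene symbols had a higher mean TPM than *Hoxa10*. Its paralogue *Hoxd10* measured 26.6, 32.6, 40.7 and 31.2 TPM in the controls and 33.02, 33.9, 47.4 and 39.9 TPM after the pulse. *Hoxc10*, used by lumbar motor neurons, measured 8.26, 11.2, 18.3 and 13.2 TPM in the controls and 16.5, 16.4, 24.3 and 20.02 TPM after the pulse, and was the lowest of the 3 paralogues in every culture. Of the paralogue 11 genes, *Hoxa11* had 13.7, 16.2, 19.7 and 15.01 TPM in the controls and 17.95, 17.5, 21.5 and 19.2 TPM after the pulse. *Hoxd11*, which acts together with *Hoxa11* in the kidney and the forearm, had 8.72, 17.9, 24.4 and 17.3 TPM in the controls and 15.1, 22.6, 33.8 and 30.7 TPM after the pulse. The control mean of *Hoxa10* was 5.24 times that of *Hoxa11*, whereas *Hoxa11* and *Hoxd11* had overlapping control ranges (16.2 ± 2.56 and 17.1 ± 6.45 TPM). *Hoxc11*, the remaining gene of the group, had 0.58 to 0.81 TPM in the controls and 0.74 to 1.73 TPM after the pulse.

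The 4 genes of paralogue group 9, of which *Hoxa9*, *Hoxb9* and *Hoxd9* act together in the mammary gland, were all detected in all cultures. *Hoxa9*, known from blood stem cells and leukaemia, had 15.9, 31.96, 38.2 and 36.98 TPM in the controls and 49.5, 40.9, 55.6 and 58.5 TPM after the pulse. *Hoxb9* had 30.2, 23.8, 15.1 and 46.6 TPM in the controls and 42.6, 34.1, 26.8 and 37.6 TPM after the pulse, with control culture 21 highest and control culture 14 lowest of the controls. *Hoxd9* measured 9.30, 12.9, 15.5 and 13.3 TPM in the controls and 19.7, 21.1, 24.4 and 17.6 TPM after the pulse. *Hoxc9*, a gene of thoracic motor neurons, was lowest of the 4 in the mean of each group, at 5.12, 7.02, 11.3 and 8.04 TPM in the controls and 9.43, 8.59, 13.7 and 12.2 TPM after the pulse. Among the paralogue 8 genes, *Hoxd8* had 25.9, 35.1, 27.4 and 28.1 TPM in the controls and 47.9, 42.02, 33.2 and 34.7 TPM after the pulse, and *Hoxc8*, which patterns brachial motor neurons, had 3.45, 10.1, 15.3 and 10.96 TPM in the controls and 10.4, 12.8, 22.9 and 18.5 TPM after the pulse. *Hoxb8* was lower than either in every culture, at 1.38 to 2.19 TPM over the 8 cultures.

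In the middle of the clusters, *Hoxb7*, whose promoter marks the duct lineage, had rank 3 in the control order, with 63.5, 47.5, 38.2 and 51.5 TPM in the controls and 78.3, 59.7, 41.1 and 49.7 TPM after the pulse. Its lowest value in each group was that of control culture 14 and GDNF culture 17, the 2 cultures with the most stromal RNA. *Hoxa7* (chr6:52215623-52218573) had 9.13, 13.7, 10.95 and 12.99 TPM in the controls and 33.5, 17.8, 19.3 and 20.9 TPM after the pulse. *Hoxb6*, the neighbour of *Hoxb7*, had 31.98, 27.5, 16.5 and 26.7 TPM in the controls and 60.3, 34.1, 22.01 and 30.2 TPM after the pulse, with control culture 14 and GDNF culture 17 again lowest. *Hoxc6* had 3.41, 6.96, 11.96 and 6.88 TPM in the controls and 6.34, 9.15, 15.3 and 11.8 TPM after the pulse, where the same cultures were the highest of their groups. *Hoxa6* measured 3.23, 6.78, 7.51 and 5.15 TPM in the controls and 7.06, 8.35, 12.1 and 10.4 TPM after the pulse. *Hoxa5*, needed for the lung and the neck, measured 7.95, 16.7, 21.03 and 18.1 TPM in the controls and 19.2, 21.3, 30.8 and 30.4 TPM after the pulse, and *Hoxb5* (chr11:96303512-96306121) measured 8.29, 15.5, 9.03 and 11.1 TPM in the controls and 31.1, 24.8, 15.4 and 18.97 TPM after the pulse. Control culture 3 was the lowest control for both.

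The anterior genes were present too, well away from the hindbrain where they are best known. *Hoxb2*, a gene of the hindbrain segments and the facial nerve, had 68.4, 60.1, 36.1 and 60.97 TPM in the controls and 109, 71.5, 52.6 and 60.6 TPM after the pulse, and it passed *Hoxa10* in GDNF culture 6. The other genes of the front end lay much lower. *Hoxa2*, which sets the identity of the second branchial arch, had 1.03 to 3.27 TPM in the controls and 3.46 to 4.29 TPM after the pulse. *Hoxa3*, needed for the thymus and the parathyroid, had 2.93, 6.67, 8.21 and 4.81 TPM in the controls and 6.63, 9.71, 10.3 and 11.1 TPM after the pulse. *Hoxb3* had 4.58, 10.9, 5.43 and 7.02 TPM in the controls and 17.2, 14.1, 9.66 and 11.8 TPM after the pulse. *Hoxd3*, which acts with *Hoxa3* in the neck vertebrae, had 6.44, 14.8, 8.77 and 7.76 TPM in the controls and 20.3, 21.4, 15.6 and 15.2 TPM after the pulse. Control culture 7 was highest among the controls for *Hoxb3* and *Hoxd3*, and control culture 14 for *Hoxa3*. *Hoxb4*, known for expanding blood stem cells, had 4.98, 9.29, 4.97 and 6.75 TPM in the controls and 16.96, 15.5, 9.26 and 10.8 TPM after the pulse, and *Hoxd4* had 3.74, 11.6, 7.09 and 5.81 TPM in the controls and 14.8, 16.9, 11.97 and 12.1 TPM after the pulse. Among the genes between 1 and 5 TPM were also, in the mean of all cultures, *Hoxa4* (2.24 TPM), *Hoxc4* (1.67) and *Hoxc5* (1.79).

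Below *Hoxa10* the levels of neighbours in the order overlapped. Of 25 pairs of neighbours in the order of control means, 24 had control ranges that overlapped, from *Hoxb2* (56.4 ± 14.1 TPM) and *Hoxb7* (50.2 ± 10.5 TPM) downward. Compared within each culture, 2 of the 25 pairs stood in the same order in all 4 controls, *Hoxa10* above *Hoxb2*, and *Hoxa3* (5.65 ± 2.29 TPM) above *Hoxa2* (2.27 ± 0.926 TPM). The gene at the top was 14.98 times the level of the gene at rank 24. Control culture 3 was the lowest control for 18 of the 24 genes at 5 TPM or more, while its levels of *Hoxb2*, *Hoxb6* and *Hoxb7* were the highest of the 4 controls.

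Summed over the family, *Hox* RNA amounted to 512.6 ± 38.8 TPM in the controls and 712.8 ± 56.0 TPM after the pulse (n = 4 each). On the TPM scale the median gene of at least 1 TPM was also higher after the pulse, by 0.40 (log2, 13698 genes). In CPM the sums were 1018 ± 69.9 and 1090 ± 97.8, ranges that overlapped. The *Hoxb* cluster made up 36.9% ± 9.41 in the controls and 35.2% ± 8.13 after the pulse of *Hox* TPM, *Hoxa* 34.1% ± 3.86 in the controls and 33.9% ± 3.76 after the pulse, *Hoxd* 21.04% ± 2.90 in the controls and 22.1% ± 2.27 after the pulse and *Hoxc* 8.01% ± 3.06 in the controls and 8.86% ± 2.73 after the pulse. None of these 4 cluster shares moved between groups by as much as 1 SD. By paralogue number, group 10 had the largest share, at 25.5% ± 3.02 in the controls and 21.6% ± 2.79 after the pulse, followed by group 9 at 15.6% ± 2.94 in the controls and 16.6% ± 1.48 after the pulse. Of the 13 paralogue groups, 4 moved by more than the SD of either group of cultures. These were group 10, lower after the pulse, and, higher after the pulse, group 3 (4.26% ± 1.25 in the controls and 5.73% ± 0.671 after the pulse), group 4 (3.18% ± 0.893 in the controls and 4.49% ± 0.703 after the pulse) and group 5 (5.47% ± 1.21 in the controls and 7.05% ± 0.386 after the pulse). Of these 4 only group 5 had values that did not overlap, at 3.69, 6.13, 6.29 and 5.75% in the controls and 6.57, 7.05, 7.06 and 7.52% after the pulse. The groups 12 and 13 each stayed below 0.1% on average. The shares of a culture add up to a whole, so the movements of groups 3, 4, 5 and 10 are not separate from each other, and none was tested.

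The balance of clusters varied more from culture to culture than between groups. The *Hoxb* share was 46.9, 36.1, 24.4 and 39.98% in the controls and 44.9, 37.9, 25.8 and 32.2% after the pulse. The *Hoxc* share was 4.84, 7.08, 12.2 and 7.97% in the controls and 5.85, 7.64, 12.1 and 9.81% after the pulse. Control culture 3 and GDNF culture 6 had the highest *Hoxb* and the lowest *Hoxc* share of their groups, and they had the lowest summed stromal RNA (417 and 456 TPM). Control culture 14 and GDNF culture 17 had the opposite balance and the highest stromal sums (2892 and 2005 TPM). The podocyte list had its extremes in the same cultures, with 12.2 and 21.2 TPM in control 3 and GDNF 6 and 88.5 and 96.2 TPM in control 14 and GDNF 17. The part of stromal cells or podocytes in this balance was not tested.

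**Figure D2:**
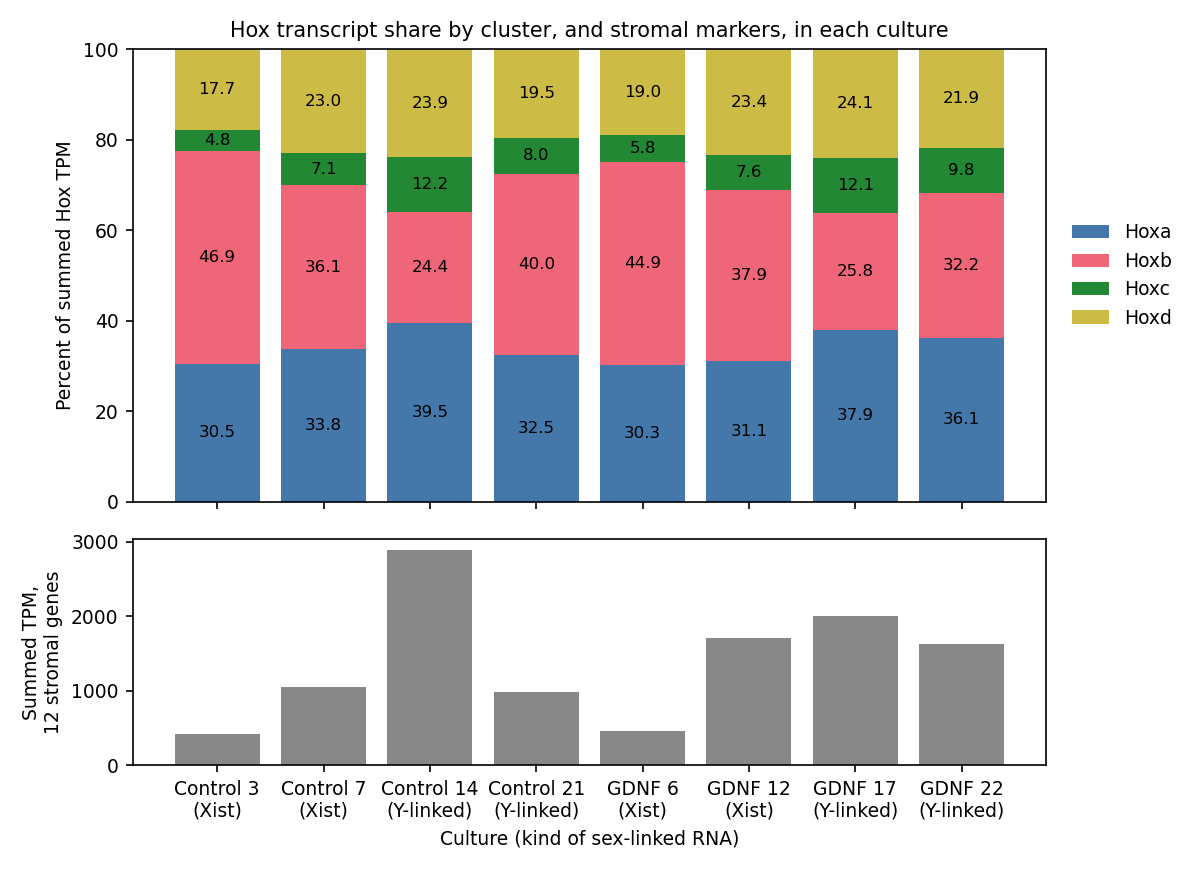
Top, percent of the summed *Hox* TPM in each culture that falls in each cluster, with the values printed in the bars; bottom, summed TPM of 12 stromal genes in the same cultures. The *Hoxb* part is largest in control 3 and GDNF 6, at 46.9% and 44.9%, where the stromal sum is lowest in its group.

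The first comparison asked whether the GDNF pulse changed the *Hox* programme by the end of culture. No *Hox* gene passed the test. With edgeR's quasi-likelihood test, 0 of the 32 *Hox* genes tested reached an adjusted p of 0.05 (Benjamini-Hochberg over 16557 genes), and the share of all genes that did was 0%. The smallest adjusted p of a *Hox* gene was 0.191 (*Hoxa7*). At an unadjusted p of 0.05, 5 *Hox* genes were higher after the pulse, where 9.25% of all genes tested were, and 0 were lower, where 12.9% of all genes were. DESeq2 gave 5 at its unadjusted p, where 7.34% of all genes were higher, and 0 at its adjusted p, which it did not give for 14 of the 32 genes, *Hoxb4* and *Hoxd4* among them. The coefficient of variation between cultures was 36.8%.

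Across the family, log2 fold changes of GDNF over control were small. They were positive for 24 of the 32 genes and negative for 8, with a median of 0.21 against 0.033 over all genes tested, and ranged from -0.36 to 0.67. With library size as the only scaling, which moved all genes up by 0.22 at the median, 30 of 32 were positive. The 14 genes of paralogue groups 1 to 5 had a median of 0.37, 12 of them positive, and held 4 of the 5 genes at an unadjusted p of 0.05. The 12 genes of groups 6 to 9 had a median of 0.14, 9 of them positive, and the 6 genes of groups 10 and 11 had a median of -0.024, 3 of them positive. By cluster, the medians were 0.37 in *Hoxa*, 0.020 in *Hoxb*, 0.18 in *Hoxc* and 0.21 in *Hoxd*. The *Hoxb* cluster was the most divided, with positive values in 4 genes, among them *Hoxb3*, *Hoxb4* and *Hoxb5*, and negative ones in *Hoxb2*, *Hoxb7*, *Hoxb8* and *Hoxb9*, which turned positive in TPM and, except for *Hoxb8*, with library size only.

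**Figure D3:**
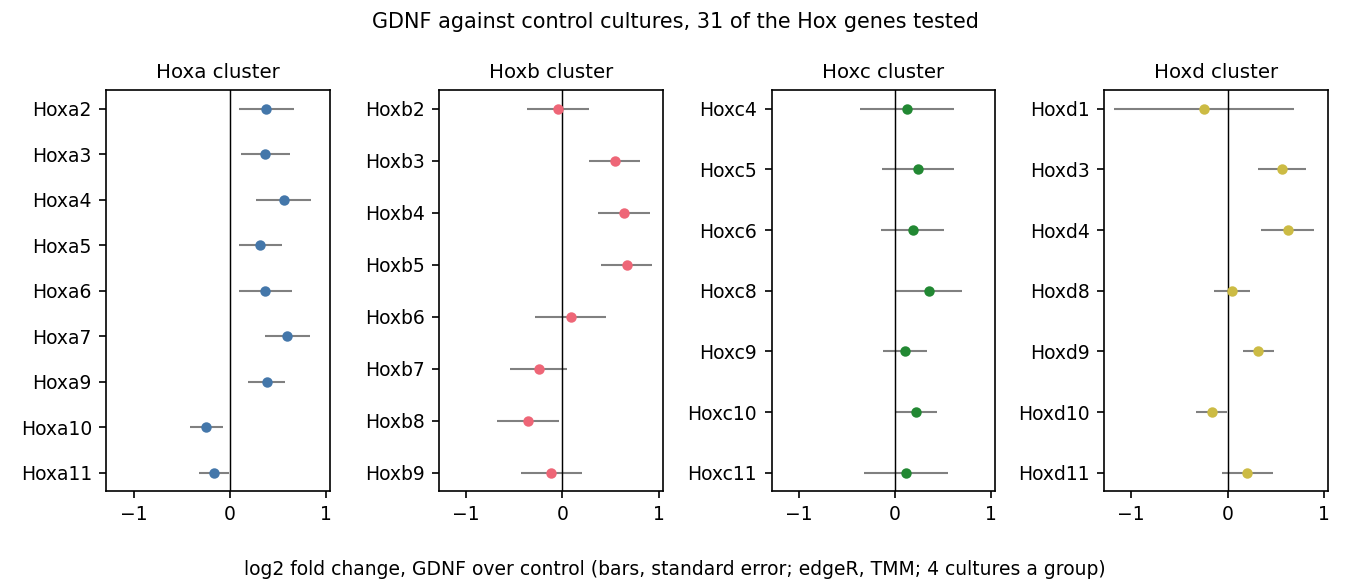
Log2 fold change of GDNF over control for 31 of the 32 *Hox* genes tested, one panel per cluster, genes from low to high paralogue number. Points are edgeR estimates from 4 cultures a group and bars are standard errors. The *Hoxb3* to *Hoxb5* points lie between 0.54 and 0.67, while *Hoxa10* is at -0.25.

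The 5 genes with the smallest unadjusted p were *Hoxa7*, *Hoxb4*, *Hoxb5*, *Hoxd3* and *Hoxd4*. *Hoxa7* measured 15.3, 16.6, 13.3 and 14.7 CPM in the controls and 34.9, 17.4, 18.9 and 19.2 CPM after the pulse. It was the 1 *Hox* gene whose groups did not overlap in CPM, which 6.99% of all genes tested did with GDNF higher, although GDNF culture 12 was only just above control culture 7 and GDNF culture 6 stood far above the rest. Its log2 fold change was 0.59 (SE 0.23, adjusted p = 0.191 by edgeR). An exact two-sided permutation test of the difference in means gave p = 0.0286, the smallest that 70 assignments allow, as it must where groups do not overlap.

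*Hoxb5* measured 13.5, 18.3, 10.7 and 12.2 CPM in the controls and 31.6, 23.5, 14.6 and 17.01 CPM after the pulse. Its neighbour *Hoxb4* (chr11:96318267-96321638) measured 10.95, 14.9, 7.94 and 10.02 CPM in the controls and 23.3, 19.9, 11.9 and 13.1 CPM after the pulse. For both, control culture 7 reached above at least 1 GDNF culture, and the GDNF cultures with *Xist* RNA were the highest of all. The log2 fold changes were 0.67 (SE 0.27, adjusted p = 0.196 by edgeR) for *Hoxb5* and 0.64 (SE 0.27, adjusted p = 0.208 by edgeR) for *Hoxb4*.

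*Hoxd3* (chr2:74711993-74748271) measured 16.04, 26.8, 15.8 and 13.02 CPM in the controls and 31.5, 31.04, 22.7 and 20.9 CPM after the pulse. *Hoxd4* (chr2:74721978-74729160), which lies within the annotated span of *Hoxd3*, measured 8.20, 18.5, 11.3 and 8.61 CPM in the controls and 20.3, 21.6, 15.3 and 14.7 CPM after the pulse. In both genes control culture 7 lay among the GDNF cultures and the other 3 controls lay below all of them. The log2 fold changes were 0.57 (SE 0.25, adjusted p = 0.217 by edgeR) for *Hoxd3* and 0.63 (SE 0.28, adjusted p = 0.221 by edgeR) for *Hoxd4*. Exact permutation tests gave p = 0.114 for *Hoxb4* and *Hoxb5* and p = 0.0857 for *Hoxd3* and *Hoxd4*. Within the cultures with *Xist* RNA the 5 genes were higher after the pulse by 0.55 (*Hoxd3*) to 0.79 (*Hoxb5*) on the log2 scale, and within the others by 0.45 (*Hoxa7*) to 0.59 (*Hoxd3*), with 2 cultures per group in each. Permuting only within these kinds gave an exact p of 0.0556 for each of the 5, the smallest possible. Because the 5 genes were picked by their p for the same difference in the same cultures, these permutation tests add no separate support. Which genes reached an unadjusted p of 0.05 depended on single cultures. Without GDNF culture 6 there were 0 *Hox* genes, where 9.2% of all genes were higher, and the log2 fold changes of *Hoxa7* and *Hoxb5* became 0.30 and 0.43. Without control culture 14 none of the 5 genes was among the 4 that reached it, which were *Hoxa3*, *Hoxa4*, *Hoxa9* and *Hoxd9* (8.53% of all genes were higher). Without GDNF culture 12 there were 2, *Hoxa7* and *Hoxa9* (5.52% of all genes), and without control culture 3 there was 1, *Hoxa7* (5.86% of all genes). Without control culture 21 there was 1, *Hoxa10*, lower after the pulse, where 15.3% of all genes were lower.

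**Figure D4:**
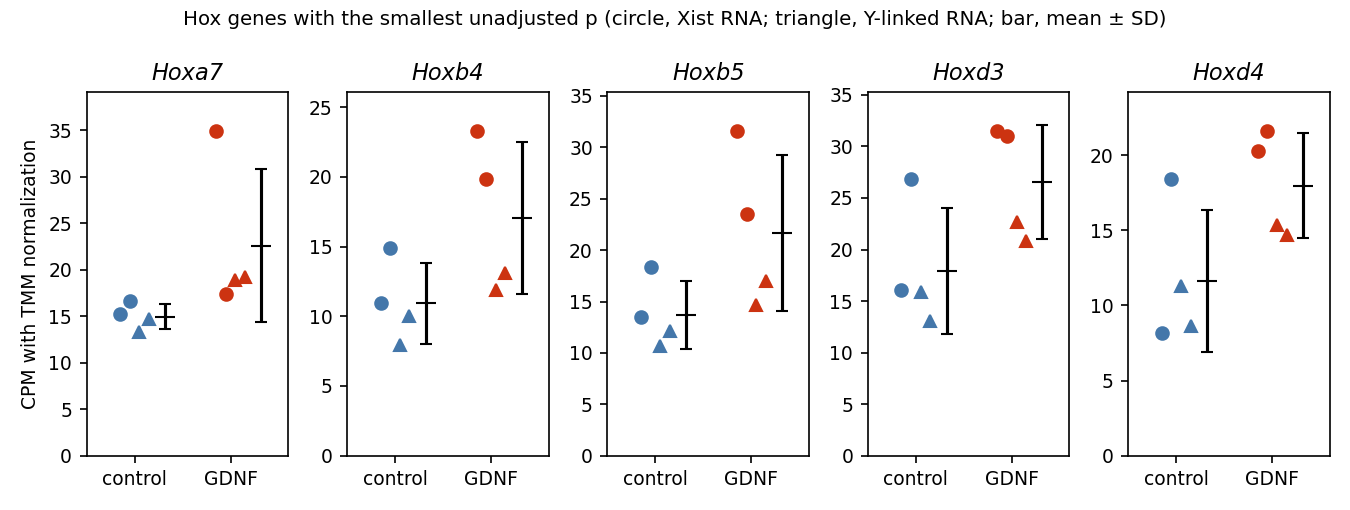
CPM with TMM normalization of the 5 *Hox* genes with the smallest unadjusted p, in each control (blue) and GDNF (red) culture; circles are cultures with *Xist* RNA, triangles those with Y-linked RNA, and bars the mean ± SD (n = 4). In *Hoxa7* the GDNF values sit above all controls, with 1 culture at 34.9 CPM, and in the other 4 genes a control circle lies among the GDNF values.

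Of the 4 upstream sequences available for these genes, 3 hold the TTTATG motif of the caudal (Cdx) factors, which act upstream of *Hox* genes in the embryo. The genes had been picked by their p in these data, and a link between the motif and their levels was not tested. RefSeq promoters were matched for 22 of the 39 *Hox* genes (24 start sites, GRCm38.p6), and *Hoxb5* had no entry. The 250 bases before the start site are printed for *Hoxa7* (chr6:52218574-52218823, minus strand), *Hoxb4* (chr11:96318017-96318266, plus strand), *Hoxd3* (chr2:74711743-74711992, plus strand) and *Hoxd4* (chr2:74721728-74721977, plus strand), written 5′ to 3′. Capitals mark TTTATG or the TATA motif TATAAA, on either strand.
Hoxa7: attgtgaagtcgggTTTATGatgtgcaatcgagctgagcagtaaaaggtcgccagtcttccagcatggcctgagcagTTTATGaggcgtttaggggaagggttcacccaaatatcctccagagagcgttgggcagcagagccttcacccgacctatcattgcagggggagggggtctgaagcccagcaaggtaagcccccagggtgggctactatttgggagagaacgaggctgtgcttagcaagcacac
Hoxb4: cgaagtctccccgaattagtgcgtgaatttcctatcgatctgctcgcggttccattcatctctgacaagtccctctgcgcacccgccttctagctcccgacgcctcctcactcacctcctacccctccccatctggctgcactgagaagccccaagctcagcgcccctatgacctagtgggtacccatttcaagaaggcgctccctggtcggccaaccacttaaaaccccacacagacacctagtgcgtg
Hoxd3: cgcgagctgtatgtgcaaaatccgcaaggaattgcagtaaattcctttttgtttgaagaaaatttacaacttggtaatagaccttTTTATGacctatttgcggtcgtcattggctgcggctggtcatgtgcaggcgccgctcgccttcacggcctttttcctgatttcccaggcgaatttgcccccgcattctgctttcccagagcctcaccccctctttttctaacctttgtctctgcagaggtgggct
Hoxd4: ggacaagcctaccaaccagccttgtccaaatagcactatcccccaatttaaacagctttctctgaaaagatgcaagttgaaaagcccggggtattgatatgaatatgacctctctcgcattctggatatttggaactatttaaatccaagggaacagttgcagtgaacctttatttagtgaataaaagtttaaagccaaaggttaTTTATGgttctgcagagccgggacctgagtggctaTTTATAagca
TTTATG occurred 2 times before *Hoxa7* and 1 time each before *Hoxd3* and *Hoxd4*, and not before *Hoxb4*. Of the 24 *Hox* promoters 5 held it, the other two being those of *Hoxb8* and *Hoxd11*, against 10.8% of 32851 promoters of all genes. The motif TGATNNAT, bound by Hox and Pbx proteins together, was in 4 *Hox* promoters and in 7.68% of all, and TATAAA in 4 and in 12.4% of all; both strands were read for each motif. *Hox* promoters had a median of 12.5 CG pairs in 250 bases, against 6 over all promoters. *Cdx1*, *Cdx2* and *Cdx4*, which encode the caudal factors, had 0 counts in all 8 cultures.

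None of the genes best known in the kidney reached an unadjusted p of 0.05 after the pulse. *Hoxb7* had 43.7 ± 17.3 CPM in the controls and 36.8 ± 12.001 CPM after the pulse, a log2 fold change of -0.25 (SE 0.29). The values were -0.16 (SE 0.16) for *Hoxa11*, 0.21 (SE 0.27) for *Hoxd11*, -0.25 (SE 0.17) for *Hoxa10*, 0.22 (SE 0.21) for *Hoxc10* and -0.16 (SE 0.16) for *Hoxd10*, with unadjusted p of 0.181 or more in edgeR for these 6 genes. The sign of the negative values among them depended on the scale, *Hoxa11*, *Hoxb7* and *Hoxd10* being positive with library size only and those 3 and *Hoxa10* in TPM. After *Hoxb5*, *Hoxb4*, *Hoxd4*, *Hoxa7* and *Hoxd3*, the next in size were *Hoxa4* with 0.56 (SE 0.29) and *Hoxb3* with 0.54 (SE 0.27). The 7 *Hoxc* genes were all slightly positive in CPM, from 0.10 to 0.36, though *Hoxc4*, *Hoxc6*, *Hoxc9* and *Hoxc11* turned negative without GDNF culture 17, and *Hoxc4* also without control culture 3 or 21. *Hoxa11* shares 568 of 2287 exon bases with the antisense transcript *Hoxa11os*, and *Hoxa3* shares 76 of 2591 with *Hoxaas3*. Reads in these shared bases cannot be assigned to one or the other here.

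The second comparison, added after the data were seen, set the 4 cultures with *Xist* RNA against the 4 with Y-linked RNA, with the pulse as a term in the fit. The *Hoxb* genes had positive and the *Hoxc* genes negative log2 fold changes of *Xist* over Y-linked cultures, but no *Hox* gene passed the adjusted p. In edgeR 0 of 32 did, where 0.411% of all genes did, and the smallest adjusted p was 0.186 (*Hoxb4*). At an unadjusted p of 0.05, 8 *Hox* genes were higher in the cultures with *Xist* RNA (7.13% of all genes were) and 4 were lower (5.22% of all genes were). The 8 were *Hoxb2*, *Hoxb3*, *Hoxb4*, *Hoxb5*, *Hoxb6*, *Hoxb7*, *Hoxd3* and *Hoxd8*, and the 4 were *Hoxa5*, *Hoxc6*, *Hoxc8* and *Hoxd11*. All 8 *Hoxb* genes tested had a positive log2 fold change and all 7 *Hoxc* genes a negative one, with medians of 0.65 and -0.69, against 0.0082 over all genes. With library size as the only scaling the same 8 and 7 genes kept those signs, with medians of 0.57 and -0.75. As a share of *Hox* TPM, which does not depend on scaling between cultures, *Hoxc* made up 4.84 to 7.64% in the cultures with *Xist* RNA and 7.97 to 12.2% in the others, and *Hoxb* 36.1 to 46.9% and 24.4 to 39.98%, ranges that overlapped. The cultures with *Xist* RNA also carry the lowest numbers of each group, so that this difference and one between early and late numbered cultures cannot be told apart.

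**Figure D5:**
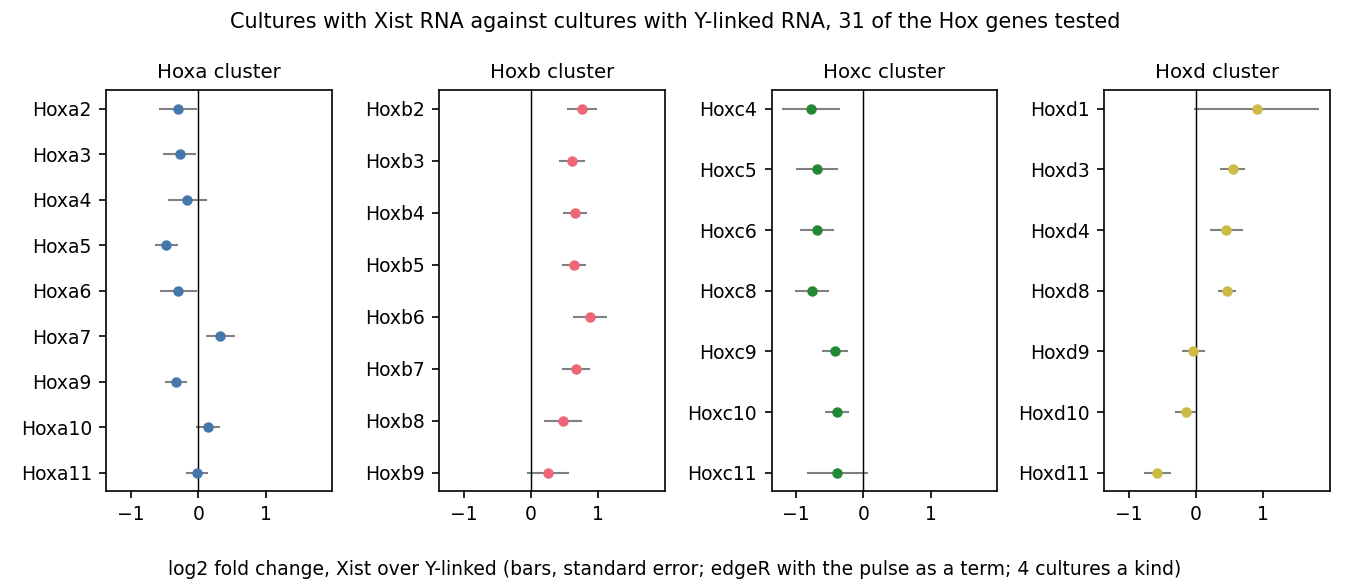
Log2 fold change of cultures with *Xist* RNA over cultures with Y-linked RNA for 31 of the 32 *Hox* genes tested, one panel per cluster. Points are edgeR estimates with the pulse as a term (4 cultures of each kind) and bars are standard errors. All *Hoxb* points lie above 0 and all *Hoxc* points below, and *Hoxa* lies on both sides.

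*Hoxb6* measured 36.3, 22.7, 13.6 and 20.4 CPM in the controls and 42.6, 22.6, 14.6 and 18.9 CPM in the GDNF cultures, the first 2 of each with *Xist* RNA. It had the largest of the 8 positive values, at 0.88 (SE 0.25), with means of 31.04 CPM in the cultures with *Xist* RNA and 16.9 CPM in the others (adjusted p = 0.211 by edgeR). *Hoxb2* followed with 0.75 (SE 0.22), and *Hoxd8*, with 0.47 (SE 0.13), had the narrowest error. For these 3 genes every culture with *Xist* RNA was above every other culture in CPM, as for 3.31% of all genes tested. In TPM the kinds overlapped for all 3. *Hoxd8* in control culture 3, which has *Xist* RNA, was at 25.9 TPM, against 27.4 to 34.7 TPM in the cultures with Y-linked RNA. *Hoxc8* measured 7.01, 14.99, 22.6 and 15.02 CPM in the controls and 13.2, 15.1, 27.2 and 20.7 CPM in the GDNF cultures. It was the lowest of the 12 genes, at -0.76 (SE 0.25), with means of 12.6 and 21.4 CPM. In the *Hoxd* cluster the front and the back went apart, with 0.55 (SE 0.18) for *Hoxd3* and -0.57 (SE 0.20) for *Hoxd11*. When each culture was left out in turn, *Hoxb6* stayed between 0.65 and 1.02 and *Hoxc8* between -1.01 and -0.58, and 9 of the 12 genes kept an unadjusted p of 0.05 or less throughout. The exceptions were *Hoxa5*, *Hoxc6* and *Hoxd11*, all 3 lost without control culture 14 and without GDNF culture 17. Without control culture 21 the count rose from 12 (12.4% of all genes were called in either direction) to 17 (14.2% of all genes), and with library size only to 14 (12.1% of all genes). Stromal genes summed to 417 to 1713 TPM in the cultures with *Xist* RNA and to 982 to 2892 TPM in the others, and the collecting duct list to 26.7 to 92.2 TPM and 7.91 to 16.1 TPM. The loop of Henle and distal tubule list summed to 13.2 to 47.8 TPM and 1.93 to 7.36 TPM, ranges that did not overlap, as did those of the collecting duct list. The part of these cell types in the difference was not tested. For a difference in the effect of the pulse between the kinds (interaction term in edgeR), 0 *Hox* genes had an unadjusted p of 0.05 or less, against 94 of all genes, and 0 of all genes passed the adjusted p.

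The partners and regulators of the *Hox* genes were tested in the same fit. Of the 9 Pbx, Meis and Pknox cofactors, 0 were higher and 0 lower at an unadjusted p of 0.05 (9.25% and 12.9% of all genes were). *Meis3* had the smallest p, with 29.1 ± 8.63 TPM in the controls, 47.7 ± 6.59 TPM after the pulse and a log2 fold change of 0.35 (SE 0.16, adjusted p = 0.233 by edgeR), and *Pbx2* was next at 0.29 (SE 0.23). The cofactor list had a median log2 fold change of 0.18. Of the 22 upstream and chromatin regulators, 19 were tested. At an unadjusted p of 0.05, 4 were higher (9.25% of all genes were) and 2 lower (12.9% of all genes were), and 0 passed the adjusted p. *Ezh1*, a Polycomb methyltransferase, had 0.38 (SE 0.12), and *Kmt2a*, the Trithorax methyltransferase that keeps *Hox* genes active, had 0.53 (SE 0.18), with adjusted p of 0.167 and 0.169 in edgeR. The other higher ones were *Kmt2b*, a relative of *Kmt2a*, at 0.48 (SE 0.20) and the Polycomb gene *Phc3* at 0.52 (SE 0.22). The 2 lower ones were the Polycomb core genes *Rnf2* at -0.44 (SE 0.15) and *Eed* at -0.38 (SE 0.15), with adjusted p of 0.169 and 0.192 in edgeR. Their groups did not overlap in CPM, as for 2193 of the 16557 genes tested when both directions are counted. In TPM *Rnf2* had 38.9 ± 2.27 and 38.2 ± 5.38 and *Eed* 43.7 ± 4.36 and 44.5 ± 2.38, ranges that overlapped. These 4 genes are named after their values were seen. With library size only all 6 kept their signs. The median of this list was 0.037.

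Of the 9 partners and targets of the paralogue 11 genes in the early kidney, 1 was higher at an unadjusted p of 0.05 (9.25% of all genes were). This was *Sall1*, a zinc finger factor of the metanephric mesenchyme, at 5.72, 10.1, 6.99 and 8.16 TPM in the controls and 21.9, 16.1, 14.8 and 13.9 TPM after the pulse. Its groups did not overlap in TPM or CPM, as for 20.6% and 6.99% of all genes tested with GDNF higher. Its log2 fold change in CPM was 0.73 (SE 0.20, adjusted p = 0.167 by edgeR). *Pax2*, which acts in both bud and mesenchyme, was next, at 0.69 (SE 0.41). The list had a median of 0.62 with 6 of 9 values positive.

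Noncoding transcripts of the clusters were listed too. *Hoxa11os*, antisense to *Hoxa11*, had 21.95 ± 2.31 TPM in the controls and 27.8 ± 2.26 TPM after the pulse, above *Hoxa11* itself in the mean of each group. Reads in the 568 exon bases that it shares with *Hoxa11* cannot be assigned to either, so this order is uncertain. *Hoxaas3* had 9.66 ± 4.14 and 14.6 ± 5.78 TPM, *Hoxd3os1* 6.97 ± 0.953 and 8.90 ± 0.424 TPM, and *Haglr* 1.58 ± 0.851 and 2.67 ± 0.839 TPM. *Hotair*, from the *Hoxc* cluster, had 0.168 ± 0.0890 and 0.401 ± 0.190 TPM, and *Hottip*, from beyond *Hoxa13*, was at 0 in all 8 cultures. None of the 5 detected had an unadjusted p below 0.127 in edgeR, with log2 fold changes from -0.081 to 0.89.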

How the data were processed

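RNA was sequenced by the study as 75-base paired-end reads from poly-A SMART-Seq v4 libraries of 8 cultures. The submitters' processing notes name STAR, featureCounts and DESeq2 with the builds mm10 and GRCm38; versions, strand setting and treatment of reads that map to several places are not given in the sources used here. The deposited tables hold, for 33068 RefSeq transcripts, whole-number counts, FPKM and TPM as the authors computed them, 1 table per culture. The deposited FPKM served only for transcript lengths.

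A gene's level is the deposited TPM of its most counted transcript. For tests, counts were summed per symbol (39 *Hox* symbols, 45 transcripts), so reads shared by transcripts of a gene count more than once. The 3 transcripts of *Hoxd8*, for example, had 4865, 4865 and 4538 counts in GDNF culture 6. This raises the CPM and the count shares of the genes listed with more than 1 transcript, *Hoxa9*, *Hoxa10*, *Hoxb3*, *Hoxd8* and *Hoxd11*. edgeR 4.0.16 (TMM, filterByExpr, quasi-likelihood test, Benjamini-Hochberg adjustment, threshold 0.05) tested 16557 genes, 32 of them *Hox*, in R 4.3.3. Exact permutation tests, which went through every assignment of cultures to groups (NumPy 2.4.6), covered single genes. Exon overlaps were read from GENCODE and matched by accession for all 39. Cultures were told apart by *Xist* or Y-linked RNA; control 3 and GDNF 6 held some of both.

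Counts and sums over the family include 1 member whose own values are not reported here. Members and gene lists were chosen with earlier results of these data known. Given in full are members that average 5 TPM or more, those whose groups do not overlap in CPM, and the 5 smallest p; of other lists, the 2 smallest p. Scripts were tested on simulated data with 200 changed genes. Alternatives were DESeq2 1.42.0, limma 3.58.1 on log2(TPM + 1) with means of at least 0.1 TPM, other scalings and filters, 1 transcript per gene, kind of culture as a covariate, a robust fit and leaving out each culture. Counts per culture summed to 72991721 to 97490625 over all transcripts, and to 46478955 to 62847252 over 1 transcript per gene. The remaining marker lists summed, over the 8 cultures, to 12.2 to 96.2 TPM (podocyte), 33.7 to 145 TPM (endothelium), 2.86 to 8.42 TPM (immune, with *Cd3e* at 0) and 1.93 to 47.8 TPM (loop of Henle and distal tubule, with *Pvalb* at 0); the summed level was 50.2 to 151 TPM for the cofactors, 278 to 408 TPM for the regulators and 19.5 to 104 TPM for the partners.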

Additional observations from a re-analysis of the deposited data

Results flagged for a closer look

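Of 72 groups of 4 values examined (the CPM of the 32 genes tested, and the cluster shares, in each group), 4 held a culture whose gap to the nearest of the others was most of the whole range, where chance flags about 1 in 20 groups. *Hoxa7* in GDNF culture 6 was at 34.9 CPM, and its 3 companions were at 17.4 to 19.2 CPM. The other 3 were all *Hoxc* genes in control culture 14. *Hoxc4* was at 3.52 CPM there, against 1.07 to 1.35 CPM in the other controls. *Hoxc9* was at 12.1 CPM, against 7.53 to 7.999 CPM, and *Hoxc10* at 21.8 CPM, against 13.4 to 14.6 CPM. Control culture 14 also had the highest stromal sum of all cultures, at 2892 TPM.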

How the results depend on the processing

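No *Hox* gene for which an adjusted p was given reached 0.05 for the pulse under the 10 other settings or without each of the 8 cultures (DESeq2 gave none for 14 of the 32 genes, and with a filter of 1 CPM in 4 cultures 30 were tested), the smallest being 0.0875. The count of 5 genes at an unadjusted p of 0.05 (9.25% of all genes were higher) became 3 with DESeq2 size factors (7.43% of all genes) and with upper-quartile factors (9.22%), 7 with kind of culture as a covariate (10.4%), 9 with library size only (19.9%) and 15 with limma on log2(TPM + 1) (31%), and ran from 0 to 6 when each culture was left out. The median log2 fold change of 0.21 became 0.42 with library size only and 0.55 with limma, and ran from 0.12 to 0.42 without each culture, with 0.42 without control culture 14, 0.13 without GDNF culture 17 and 0.12 without control culture 21. Log2 fold changes changed sign with library size only for *Hoxa11* (0.061), *Hoxb2* (0.20), *Hoxb7* (0.0077), *Hoxb9* (0.12), *Hoxd1* (0.013) and *Hoxd10* (0.057), and with limma for *Hoxa10* (0.17), *Hoxa11* (0.23), *Hoxb2* (0.36), *Hoxb7* (0.17), *Hoxb8* (0.063), *Hoxb9* (0.37), *Hoxd1* (0.028) and *Hoxd10* (0.23). Without single cultures they ranged across 0 for *Hoxb2* -0.35 to 0.23, *Hoxb6* -0.32 to 0.38, *Hoxb7* -0.48 to 0.061, *Hoxb9* -0.35 to 0.057, *Hoxc4* -0.24 to 0.69, *Hoxc6* -0.049 to 0.50, *Hoxc9* -0.020 to 0.30, *Hoxc11* -0.22 to 0.25, *Hoxd1* -0.62 to 0.17 and *Hoxd8* -0.10 to 0.13. The cause was not tested. The summed level of 512.6 TPM became 698.4 TPM when all transcripts of a gene were added. As shares of counts in place of TPM, *Hoxa* made up 43.1% and 41.7% (control and GDNF), *Hoxb* 23.4% and 23.1%, *Hoxd* 28.4% and 29.6%, and *Hoxc* 5.11% and 5.64%. In the same order, paralogue group 10 made up 28.5% and 23.2%, group 9 20.3% and 22.4%, group 3 5.57% and 7.47%, group 5 3.48% and 4.45%, and group 4 2.54% and 3.60%. These counts are unscaled by length and added over all transcripts of a gene. The exact p of the *Hoxa7* difference of 7.64 CPM was 0.0556 within kinds of culture, and in TPM those of *Hoxd3* (8.68 TPM) and *Hoxd4* (6.89 TPM) were 0.0286. Groups that did not overlap numbered 1 *Hox* gene in CPM and 7 in TPM, where 20.6% of all genes did so with GDNF higher, the latter added after the data were seen. No paired analysis was possible because the groups share no culture numbers. The 7 genes with at most 25 counts in any culture were not tested.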
